A study of Mus musculus with 9 samples.

Results

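The nuclear genes for the subunits of respiratory complexes II, III, IV and V, with cytochrome c, were followed in mouse left ventricle. Members were taken by gene symbol, as Sdha to Sdhd, Cyc1, Cycs and every symbol that starts with Uqcr, Cox4i, Cox5, Cox6, Cox7, Cox8 or Atp5, leaving out symbols that contain -ps. The rule found 50 of the 22036 rows that carry an Ensembl identifier, namely 4 for complex II, 9 for complex III, 1 for cytochrome c, 18 for complex IV and 18 for complex V. It also takes Cox7a2l, a factor that joins complexes III and IV into supercomplexes, and Atp5s, a coupling factor outside the core of ATP synthase. The symbols do not reach some subunits, such as Ndufa4 of complex IV and Usmg5 of ATP synthase, which are given with the other genes of the pathway.

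Poly(A) RNA of left ventricle from wild-type mice was sequenced in 9 libraries, 3 per group, which the design text calls biological replicates. HFD+AAV-BCKDK mice carried an adeno-associated virus named for Bckdk on the diet labelled HFD, HFD+AAV-CON mice carried a control virus on that diet, and ND+AAV-CON mice carried the control virus on the diet labelled ND. All groups therefore received a virus. The sources used here do not give its promoter and dose, the diets' composition and duration, or the animals' age and sex. Bckdk encodes the kinase that switches off the branched-chain ketoacid dehydrogenase, and the series asks whether it alters the remodelling of the obese heart.

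The respiratory chain carries electrons from fuel oxidation to oxygen and stores the energy as a proton gradient across the inner mitochondrial membrane. Complex II (succinate dehydrogenase) feeds electrons from the citric acid cycle into ubiquinone, complex III passes them to cytochrome c, complex IV (cytochrome c oxidase) hands them to oxygen, and complex V (ATP synthase) uses the gradient to make ATP. Complex II is built from nuclear genes alone, whereas cytochrome b (mt-Cytb) of complex III, the catalytic core of complex IV and parts of the proton channel of complex V are encoded by mitochondrial DNA. Heart muscle is dense in mitochondria and uses muscle versions of some complex IV subunits, encoded by Cox6a2, Cox7a1 and Cox8b, beside versions found in most tissues, encoded by Cox6a1, Cox7a2 and Cox8a.

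The deposited values are raw read counts, and annotated genes held between 32803233 and 45483044 counts per library. Levels are given as CPM, which are counts scaled to a common library size, here set by the TMM method of edgeR. A gene is said to have risen or fallen where its adjusted p, from edgeR's quasi-likelihood test with Benjamini-Hochberg adjustment over the 14160 genes tested, was under 0.05, and every adjusted p of a gene below comes from that test. Bckdk itself had 111, 126 and 119.9 CPM in HFD+AAV-BCKDK, 37.0, 65.0 and 49.4 CPM in HFD+AAV-CON, and 78.6, 70.3 and 70.6 CPM in ND+AAV-CON. Each HFD+AAV-BCKDK value of Bckdk was thus above every value of the other groups. Relative to HFD+AAV-CON, its log2 fold change was 1.24 ± 0.17 (SE, adjusted p = 0.00161). Bckdk was itself lower in HFD+AAV-CON than in ND+AAV-CON (-0.54 ± 0.17, adjusted p = 0.0300). When compared with ND+AAV-CON, its log2 fold change in HFD+AAV-BCKDK was 0.70 ± 0.17 and was not called (adjusted p = 0.0700). The 3 HFD+AAV-CON libraries differed most among themselves, where the chi-square statistic of a pair, divided by its degrees of freedom, was 66.4 to 273. It was 14.9 to 18.2 for pairs of HFD+AAV-BCKDK libraries and 21.9 to 23.8 for pairs of ND+AAV-CON libraries. HFD+AAV-CON replicate 3 lay between the other 2 libraries of its group for 64.1% of genes tested, against 14.8% to 37.1% for each of the remaining libraries, and loci without a gene name took 1.02% of its counts, against 4.75% to 6.01%. The labels make it a sample of its own, but the files cannot show whether it came from a separate animal. If it did not, HFD+AAV-CON would hold 2 independent samples, and the p-values against that group would be too small. Counts of calls per complex and per gene list are therefore also given without it. Cardiomyocyte markers were abundant in all libraries. The 4 atrial markers summed to 63.2 to 176 CPM in HFD+AAV-BCKDK, 285 to 1439 CPM in HFD+AAV-CON and 86.5 to 212 CPM in ND+AAV-CON, nearly all of it Nppa, a natriuretic peptide that ventricle also makes, while Sln held at most 6 counts in any library. The other atrial markers, Myl7 and Myl4, were not called in any comparison. The log2 fold change of Myl7 was -5.97 ± 2.29 (SE, adjusted p = 0.0752) in HFD+AAV-BCKDK against HFD+AAV-CON. It was 0.79 ± 1.19 (adjusted p = 0.624) in HFD+AAV-CON and -5.18 ± 2.48 (adjusted p = 0.353) in HFD+AAV-BCKDK, each against ND+AAV-CON. The 7 fat markers summed to 23.2 to 30.4 CPM in HFD+AAV-BCKDK, 12.9 to 22.1 in HFD+AAV-CON and 17.7 to 21.9 in ND+AAV-CON, mostly Cidea, with Lep at 0 throughout. The 7 skeletal muscle markers summed to 0.990 to 1.23, 1.53 to 3.42 and 0.847 to 1.84 CPM, with Myh1 at 0 throughout and Tnnt3 the largest, at up to 143 counts. The part of these cell types in the members' values was not tested.

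Most members were lower in HFD+AAV-CON than in either other group. In HFD+AAV-BCKDK against HFD+AAV-CON, 40 of the 47 members tested rose and none fell, with a median log2 fold change of 0.74, against a median of -0.01 over all genes tested. In HFD+AAV-CON against ND+AAV-CON, 41 members fell and none rose, with a median log2 fold change of -0.77, against a median of -0.002 over all genes. In HFD+AAV-BCKDK against ND+AAV-CON, where diet and virus differ together, none of the 47 was called in either direction and the median was 0.001, against -0.03 over all genes. The first pair of comparisons share the HFD+AAV-CON libraries, so their opposite signs are not separate observations. Below, a rise given without its groups is that of HFD+AAV-BCKDK over HFD+AAV-CON, a fall is that of HFD+AAV-CON below ND+AAV-CON, and both are log2 fold changes.

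Many other genes moved as well. Of all 14160 genes tested, 38.2% were called in HFD+AAV-BCKDK against HFD+AAV-CON, of which 17.3% of the genes tested rose and 20.9% fell. In HFD+AAV-CON against ND+AAV-CON 43.3% were called, with 22.7% rising and 20.6% falling. Between HFD+AAV-BCKDK and ND+AAV-CON the share was 2.45%, 1.18% rising and 1.27% falling. For the 0 of 47 members called in HFD+AAV-BCKDK against ND+AAV-CON by edgeR, DESeq2 and limma-voom also called 0, and 0 members had an unadjusted p under 0.05. Of all 14160 genes, 2405 had an unadjusted p under 0.05 in that edgeR comparison. DESeq2 called 486 of all genes rising and 416 falling there, and limma-voom 150 and 168. The spread used in this comparison is estimated over all 9 libraries, so it includes HFD+AAV-CON, whose libraries differed most among themselves. With the 2 compared groups fitted alone, 464 of 13665 genes rose and 409 fell. A count of 0 of 47 lies near the 2.45% of all genes called, so it does not set the members apart. Nor does it show that the members were equal in these groups.

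**Figure D1:**
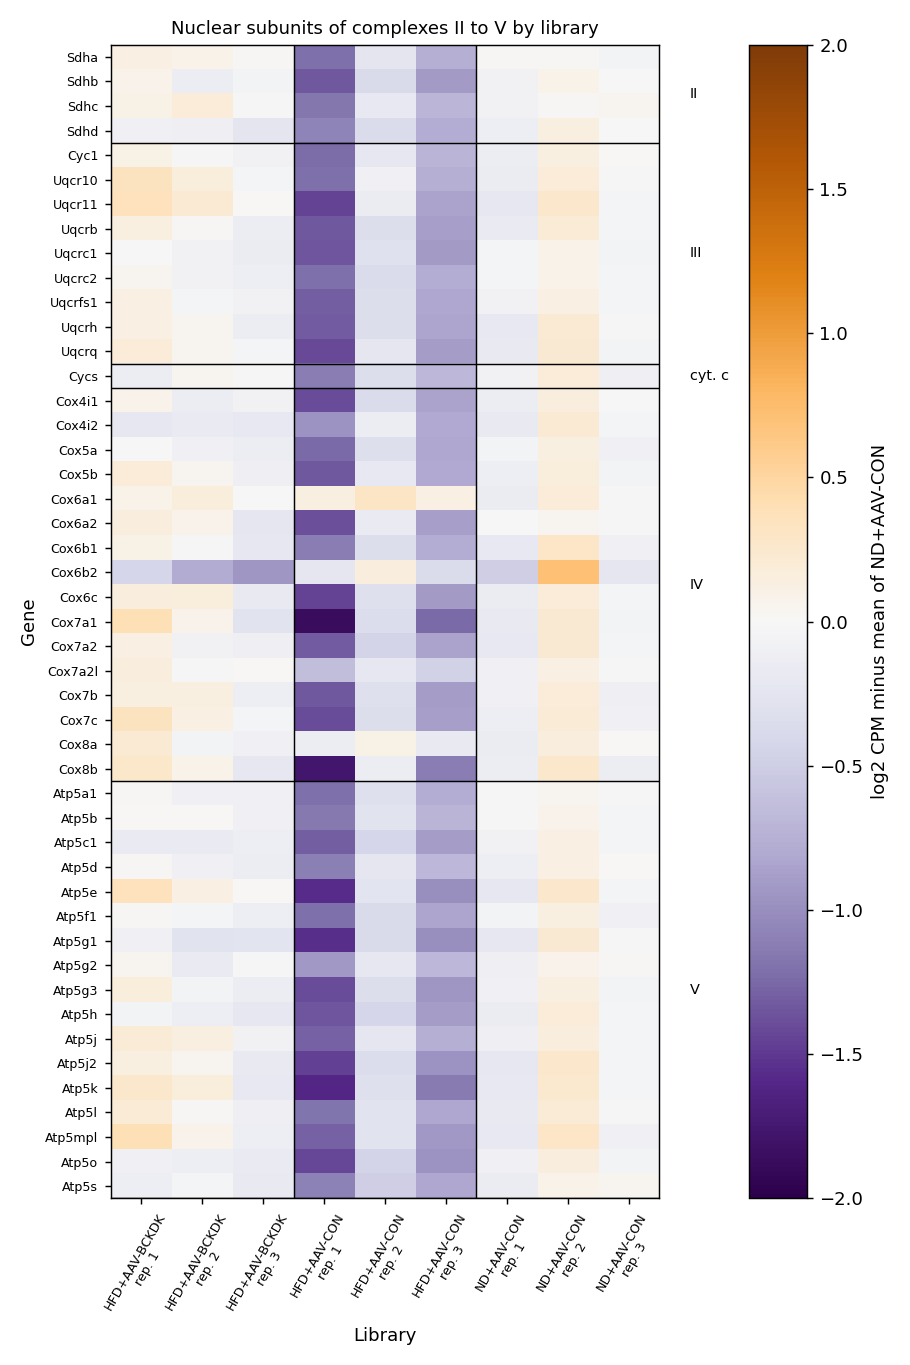
Level of each of the 47 members tested in each library, as log2 CPM minus the mean of the ND+AAV-CON libraries (colour scale from -2 to 2), with rows grouped by complex and columns by group. HFD+AAV-CON replicates 1 and 3 are lowest in nearly all rows, replicate 2 of that group is closer to the other groups, and Cox6a1 and Cox8a stay near 0 throughout.

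The number of calls rested on single libraries. Without HFD+AAV-CON replicate 3, 4 members rose with the BCKDK virus under HFD and 10 fell in HFD+AAV-CON against ND+AAV-CON, with medians of 0.72 and -0.72. These 10 include Cox7b2, which passed the filter on low counts in that fit but not in the fit of all libraries. That fit tested 48 members and 14325 genes, and 984 of all genes rose and 1724 fell. The counts per complex and per gene list without that library, given below, stand beside these same all-gene counts. Without HFD+AAV-BCKDK replicate 1, 3 members rose, and without replicate 2, 7 rose, with medians of 0.69 and 0.75, and without ND+AAV-CON replicate 2, 9 fell, with a median of -0.69. Without HFD+AAV-CON replicate 2, the highest library of that group, 44 members rose and 44 fell, with medians of 1.07 and -1.05. Over all genes, 1115 of 14431 rose without HFD+AAV-BCKDK replicate 1 and 1226 of 14427 without replicate 2. The all-gene count falling without ND+AAV-CON replicate 2 was 1857 of 14390. In the fit without HFD+AAV-CON replicate 2, 3555 of 14403 genes rose and 3689 fell. Members called in the fit of all libraries and in all 9 fits that left out 1 library numbered 3 in HFD+AAV-BCKDK against HFD+AAV-CON (Cox7c, Cox7a2 and Atp5s) and 9 in HFD+AAV-CON against ND+AAV-CON (Sdhb, Sdhd, Uqcrc2, Cox7a2, Atp5c1, Atp5f1, Atp5h, Atp5o and Atp5s).

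**Figure D2:**
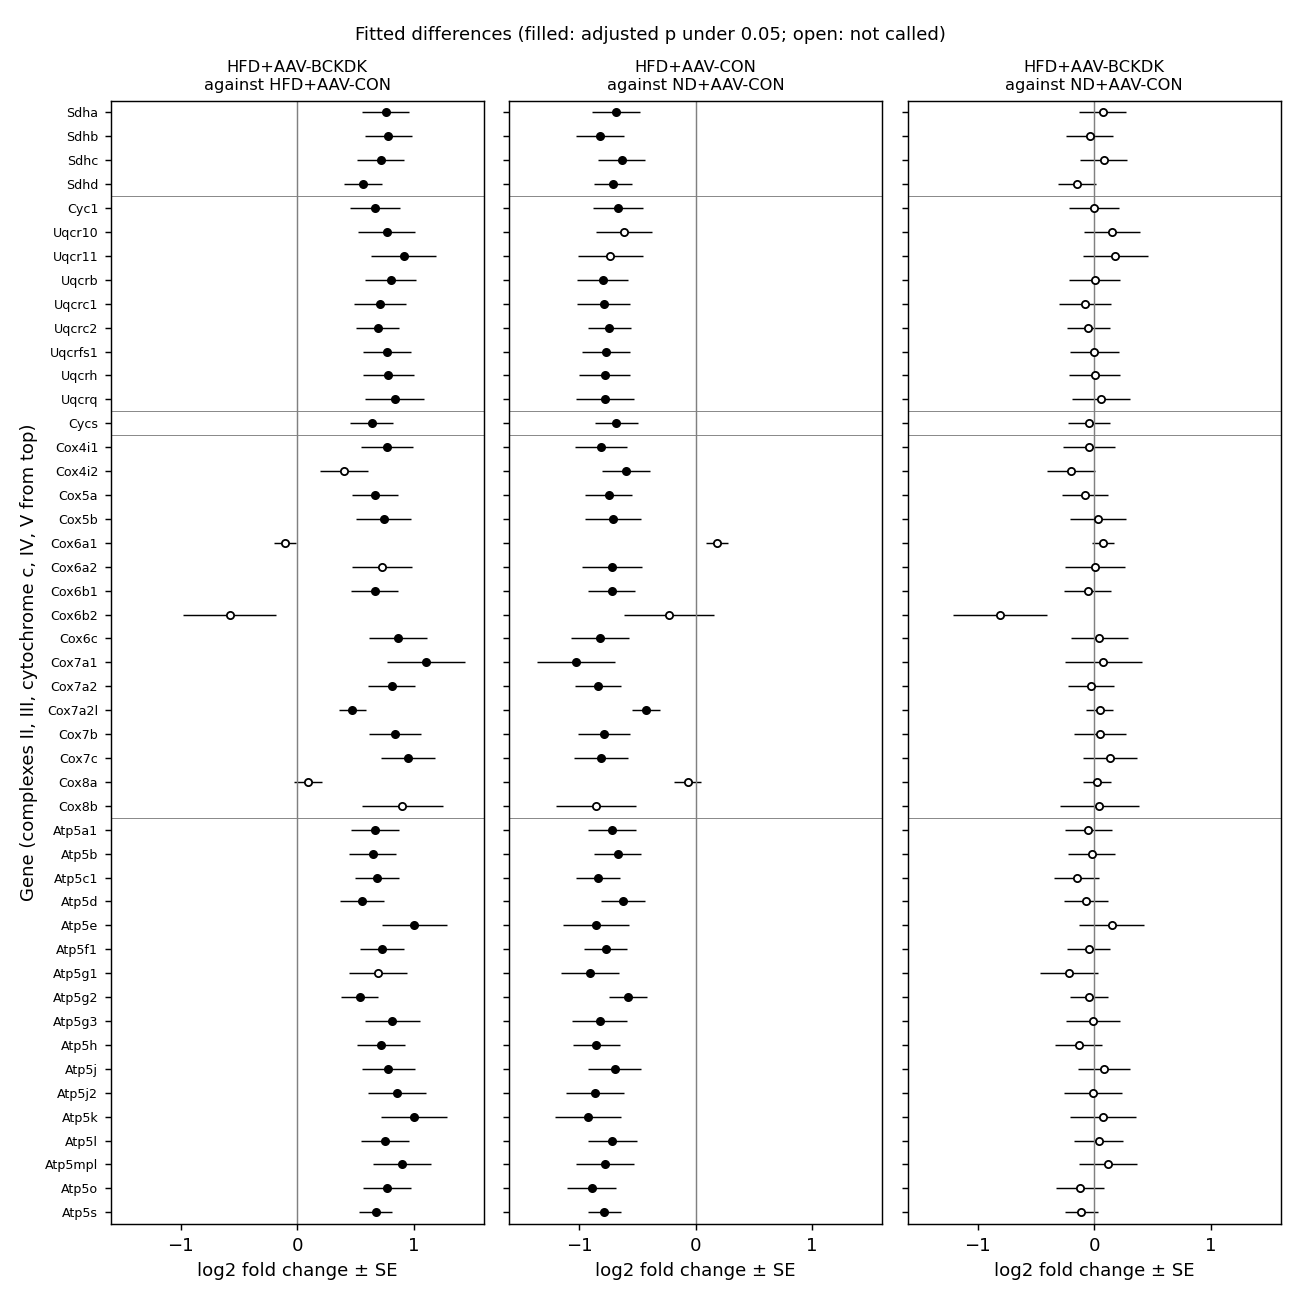
Fitted log2 fold change of each member (point) with its standard error (bar) in HFD+AAV-BCKDK against HFD+AAV-CON, HFD+AAV-CON against ND+AAV-CON and HFD+AAV-BCKDK against ND+AAV-CON, with filled points for adjusted p under 0.05. Filled points lie to the right in the first panel (40 members) and to the left in the next (41 members), the last panel has none, and Cox6a1, Cox8a and the scarce Cox6b2 stand apart from the other members of complex IV.

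The members of a library moved together. HFD+AAV-CON replicate 2 was the highest library of its group for 47 of 47 members and replicate 3 lay between the other 2 for 44 of 47. ND+AAV-CON replicate 2 was the highest of its group for 45 and HFD+AAV-BCKDK replicate 1 for 40. Summed over the 50 rows, the members held 31273, 29506 and 27934 CPM in HFD+AAV-BCKDK, 12576, 24291 and 17103 CPM in HFD+AAV-CON, and 28458, 32695 and 29225 CPM in ND+AAV-CON. Every HFD+AAV-CON sum was below every sum of the other groups, and the HFD+AAV-BCKDK and ND+AAV-CON sums overlapped. Values of the HFD+AAV-BCKDK libraries lay above all HFD+AAV-CON values for 41 of the 47 members and below them for 1, against 24% and 27.3% of all genes tested. Those of HFD+AAV-CON lay below all ND+AAV-CON values for 40 members and above them for none, against 27.1% and 28.2% of all genes.

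The members differed widely in level. Per kilobase of exon, the ND+AAV-CON means were highest for Atp5b (the catalytic beta subunit of ATP synthase), Cox4i1, Atp5g3, Atp5a1 and Cox6a2, in that order. Atp5b averaged 2067 CPM per kilobase in HFD+AAV-BCKDK, 1320.0 in HFD+AAV-CON and 2099 in ND+AAV-CON, and Cox6a2, the fifth, averaged 1262, 764 and 1258 in the same groups. At the other end, Atp5s averaged 14.4, 9.04 and 15.6 CPM per kilobase, Cox4i2 10.47, 7.95 and 12.01, and Cox6b2 0.759, 1.14 and 1.33. Complex V took 50.6% to 51.5% of the members' counts in HFD+AAV-BCKDK, 51.2% to 51.9% in HFD+AAV-CON and 51.3% to 52.1% in ND+AAV-CON. Complex IV took 20.03% to 21.6%, 20.02% to 20.8% and 20.02% to 21.0% in the same groups, so the makeup by complex overlapped between groups while the sum differed.

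All 4 subunits of complex II were called. They rose in HFD+AAV-BCKDK against HFD+AAV-CON with log2 fold changes of 0.57 to 0.78, and fell in HFD+AAV-CON against ND+AAV-CON by 0.64 to 0.82 on the log2 scale. Sdhb, the iron-sulfur subunit (chromosome 4, 140961203 to 140979193, GRCm38), had 688, 601 and 630.2 CPM in HFD+AAV-BCKDK, 261, 504 and 350.3 CPM in HFD+AAV-CON, and 624, 697 and 651 CPM in ND+AAV-CON. All HFD+AAV-CON values of Sdhb were below those of the other groups, which overlapped. Its log2 fold change was 0.78 ± 0.20 (SE, adjusted p = 0.0166) in HFD+AAV-BCKDK relative to HFD+AAV-CON and -0.82 ± 0.20 (adjusted p = 0.0107) in HFD+AAV-CON against ND+AAV-CON. Sdhd, a membrane anchor of the complex (chromosome 9, 50596357 to 50603812), had 437, 432 and 394 CPM in HFD+AAV-BCKDK, 221, 362 and 271 CPM in HFD+AAV-CON, and 429, 507 and 459.8 CPM in ND+AAV-CON. It rose by 0.57 ± 0.16 (SE, adjusted p = 0.0250) and fell by 0.71 ± 0.16 (adjusted p = 0.00819) on the log2 scale in the same comparisons. Sdha, the flavoprotein that oxidises succinate, and Sdhc, the other anchor, rose by 0.76 and 0.72 and fell by 0.68 and 0.64 on that scale. Sdha was the only member whose HFD+AAV-BCKDK values (1060.1 to 1126 CPM) all lay above the ND+AAV-CON values (1004 to 1059 CPM). Its log2 fold change there was 0.08 ± 0.20 (SE, adjusted p = 0.896), where the SE includes the spread of the HFD+AAV-CON libraries. Sdha is named after its values were seen. Over the fits that left out 1 library, the rise of Sdhb lost its call without HFD+AAV-BCKDK replicate 1 or HFD+AAV-CON replicate 3 (highest adjusted p = 0.0569), and that of Sdhd also without HFD+AAV-BCKDK replicate 2 (highest adjusted p = 0.0758). The fit without HFD+AAV-CON replicate 3 kept none of the 4 rises and 2 of the falls, with medians of 0.73 and -0.66.

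In complex III, 9 of 9 members rose in HFD+AAV-BCKDK against HFD+AAV-CON, by 0.67 to 0.91, and 7 of 9 fell in HFD+AAV-CON against ND+AAV-CON. Uqcrc2, a core protein of the matrix side (chromosome 7, 120635176 to 120659524), had 929.6, 853 and 826 CPM in HFD+AAV-BCKDK, 389, 699 and 528 CPM in HFD+AAV-CON, and 875, 953 and 875 CPM in ND+AAV-CON. HFD+AAV-CON was below both other groups in every library, and those groups overlapped. Uqcrc2 rose by 0.69 ± 0.18 (SE, adjusted p = 0.0186) and fell by 0.74 ± 0.18 (adjusted p = 0.0113) on the log2 scale. The electron-carrying subunits Cyc1 (cytochrome c1) and Uqcrfs1 (the Rieske iron-sulfur protein) rose by 0.67 and 0.77 and fell by 0.67 and 0.77. The members not called in HFD+AAV-CON against ND+AAV-CON were the small subunits Uqcr10 and Uqcr11. Uqcr10 had 187, 167 and 144 CPM in HFD+AAV-BCKDK, 64.4, 141 and 88.4 CPM in HFD+AAV-CON, and 134, 169 and 146 CPM in ND+AAV-CON. Uqcr11 had 198, 180.2 and 155 CPM in HFD+AAV-BCKDK, 56.8, 140.0 and 86.4 CPM in HFD+AAV-CON, and 134, 186 and 150.4 CPM in ND+AAV-CON. In both genes HFD+AAV-CON replicate 2 exceeded ND+AAV-CON replicate 1, and the log2 fold changes against ND+AAV-CON were -0.61 ± 0.24 (SE, adjusted p = 0.0662) for Uqcr10 and -0.73 ± 0.28 (adjusted p = 0.0570) for Uqcr11. Without HFD+AAV-CON replicate 3, the calls of complex III numbered 0 in HFD+AAV-BCKDK relative to HFD+AAV-CON and 1 in HFD+AAV-CON against ND+AAV-CON.

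Cycs, the mobile electron carrier cytochrome c (chromosome 6, 50562563 to 50566538), had 1034, 1165 and 1120.0 CPM in HFD+AAV-BCKDK, 523, 902 and 706 CPM in HFD+AAV-CON, and 1084, 1284 and 1055 CPM in ND+AAV-CON. The HFD+AAV-CON libraries were again the lowest 3. Cycs rose by 0.64 ± 0.18 (SE, adjusted p = 0.0244) and fell by 0.68 ± 0.18 (adjusted p = 0.0157) on the log2 scale, and the fall was not called without HFD+AAV-CON replicate 3 or ND+AAV-CON replicate 2 (highest adjusted p = 0.0619). The rise was not called without HFD+AAV-CON replicate 3 or any 1 of the HFD+AAV-BCKDK libraries (highest adjusted p = 0.0741). Cycs has 4 near-identical copies in the annotation, of which 1 is in the count table with 6.504% as many counts, so some reads may be split between them.

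Complex IV held most of the exceptions. Of its 16 members tested, 10 rose in HFD+AAV-BCKDK relative to HFD+AAV-CON and 12 fell in HFD+AAV-CON against ND+AAV-CON, and none was called the other way. When HFD+AAV-CON replicate 3 was left out, 3 rose and 1 fell, with medians of 0.69 and -0.70. Among subunits with a single common version, Cox5a and Cox5b rose by 0.67 and 0.74 and fell by 0.75 and 0.71, and Cox6c rose by 0.87 and fell by 0.82 on the log2 scale. Cox5b shares its coding sequence with a copy that had 11.9% as many counts. Cox7c, a small membrane subunit (chromosome 13, 86044816 to 86046904), had 406, 349 and 311 CPM in HFD+AAV-BCKDK, 123, 254 and 174 CPM in HFD+AAV-CON, and 296, 368 and 304 CPM in ND+AAV-CON. It had the smallest p of complex IV in HFD+AAV-BCKDK against HFD+AAV-CON, with a rise of 0.95 ± 0.23 (SE, adjusted p = 0.0134), and it fell by 0.82 ± 0.23 (adjusted p = 0.0194) in HFD+AAV-CON against ND+AAV-CON. Cox7a2l rose by 0.47 and fell by 0.43, the smallest changes among the called members.

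Cox6a is the subunit through which the energy state of the cell is thought to tune cytochrome c oxidase, and its heart and muscle version Cox6a2 far exceeded the common version Cox6a1. Cox6a2 (chromosome 7, 128205435 to 128206387) had 945, 898 and 732 CPM in HFD+AAV-BCKDK, 329, 766 and 462 CPM in HFD+AAV-CON, and 847, 880.2 and 839.7 CPM in ND+AAV-CON. Cox6a1 (chromosome 5, 115345642 to 115348981) had 53.7, 56.2 and 50.3 CPM in HFD+AAV-BCKDK, 55.4, 62.2 and 54.8 CPM in HFD+AAV-CON, and 45.5, 56.9 and 49.5 CPM in ND+AAV-CON. Cox6a2 was low in HFD+AAV-CON, with 1 library of that group inside the HFD+AAV-BCKDK range, while the groups of Cox6a1 overlapped. Cox6a2 fell by 0.72 ± 0.26 (SE, adjusted p = 0.0470) in HFD+AAV-CON against ND+AAV-CON, a call that 8 of the 9 fits without 1 library did not keep, and its log2 fold change in HFD+AAV-BCKDK against HFD+AAV-CON was 0.73 ± 0.26 (adjusted p = 0.0506). Cox6a1 had log2 fold changes of -0.10 ± 0.10 (adjusted p = 0.419) and 0.18 ± 0.10 (adjusted p = 0.155) in HFD+AAV-BCKDK relative to HFD+AAV-CON and in HFD+AAV-CON against ND+AAV-CON.

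The ratio of the 2 versions within a library does not depend on library scaling. Cox6a2 had 17.6, 15.96 and 14.5 counts per Cox6a1 count in HFD+AAV-BCKDK, 5.95, 12.3 and 8.43 in HFD+AAV-CON, against 18.6, 15.5 and 16.9 in ND+AAV-CON. The HFD+AAV-CON ratios were the lowest 3. The log2 ratio differed by 0.91 in HFD+AAV-BCKDK relative to HFD+AAV-CON and by -0.99 in HFD+AAV-CON against ND+AAV-CON. Each had p = 0.1 in a two-sided exact permutation test, the smallest value that 3 against 3 libraries allow, and an adjusted p of 0.333 over the 30 ratios compared.

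Cox8 is a small membrane subunit with a muscle version, Cox8b, and a common version, Cox8a. Cox8b (chromosome 7, 140898945 to 140900446) had 187, 165 and 134 CPM in HFD+AAV-BCKDK, 45.9, 143 and 71.5 CPM in HFD+AAV-CON, and 141, 187 and 143 CPM in ND+AAV-CON. Cox8a (chromosome 19, 7215153 to 7217616) had 104, 86.2 and 84.2 CPM in HFD+AAV-BCKDK, 82.2, 96.3 and 79.3 CPM in HFD+AAV-CON, and 81.1, 99.3 and 89.8 CPM in ND+AAV-CON. Groups overlapped for both genes, through HFD+AAV-CON replicate 2 in the case of Cox8b. The log2 fold changes of Cox8b were 0.90 ± 0.34 (SE, adjusted p = 0.0633) in HFD+AAV-BCKDK relative to HFD+AAV-CON and -0.86 ± 0.34 (adjusted p = 0.0686) in HFD+AAV-CON against ND+AAV-CON, so neither was called. Those of Cox8a were 0.09 ± 0.12 (adjusted p = 0.565) and -0.07 ± 0.12 (adjusted p = 0.666). Cox8b had 1.79, 1.91 and 1.59 counts per Cox8a count in HFD+AAV-BCKDK, 0.558, 1.48 and 0.901 in HFD+AAV-CON, against 1.74, 1.88 and 1.59 in ND+AAV-CON. Again the HFD+AAV-CON ratios were the lowest 3, with log2 differences of 0.96 and -0.93 in the same comparisons (two-sided exact permutation p = 0.1 for each, adjusted p = 0.333).

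For Cox7a both versions were called. The muscle version Cox7a1 (chromosome 7, 30184144 to 30186078) had 315, 252 and 198 CPM in HFD+AAV-BCKDK, 65.9, 188 and 101 CPM in HFD+AAV-CON, and 213, 279.9 and 232 CPM in ND+AAV-CON. The common version Cox7a2 (chromosome 9, 79755361 to 79759878) had 285, 253 and 245 CPM in HFD+AAV-BCKDK, 106, 195 and 145 CPM in HFD+AAV-CON, and 231, 308 and 258 CPM in ND+AAV-CON. In both genes every HFD+AAV-CON library was below every library of the other groups. Cox7a1 had the largest fitted changes of any member tested, a rise of 1.11 ± 0.33 (SE, adjusted p = 0.0281) and a fall of 1.03 ± 0.33 (adjusted p = 0.0323), and without HFD+AAV-CON replicate 3, among other libraries, neither was called (highest adjusted p = 0.0927 and 0.104). Cox7a2 rose by 0.81 ± 0.20 (adjusted p = 0.0140) and fell by 0.84 ± 0.20 (adjusted p = 0.00938). Cox7a1 had 1.11, 0.998 and 0.806 counts per Cox7a2 count in HFD+AAV-BCKDK, 0.622, 0.966 and 0.696 in HFD+AAV-CON, against 0.919, 0.910 and 0.899 in ND+AAV-CON, and these ratios overlapped between groups (two-sided exact permutation p = 0.2 and 0.4, adjusted p = 0.4 and 0.545).

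**Figure D3:**
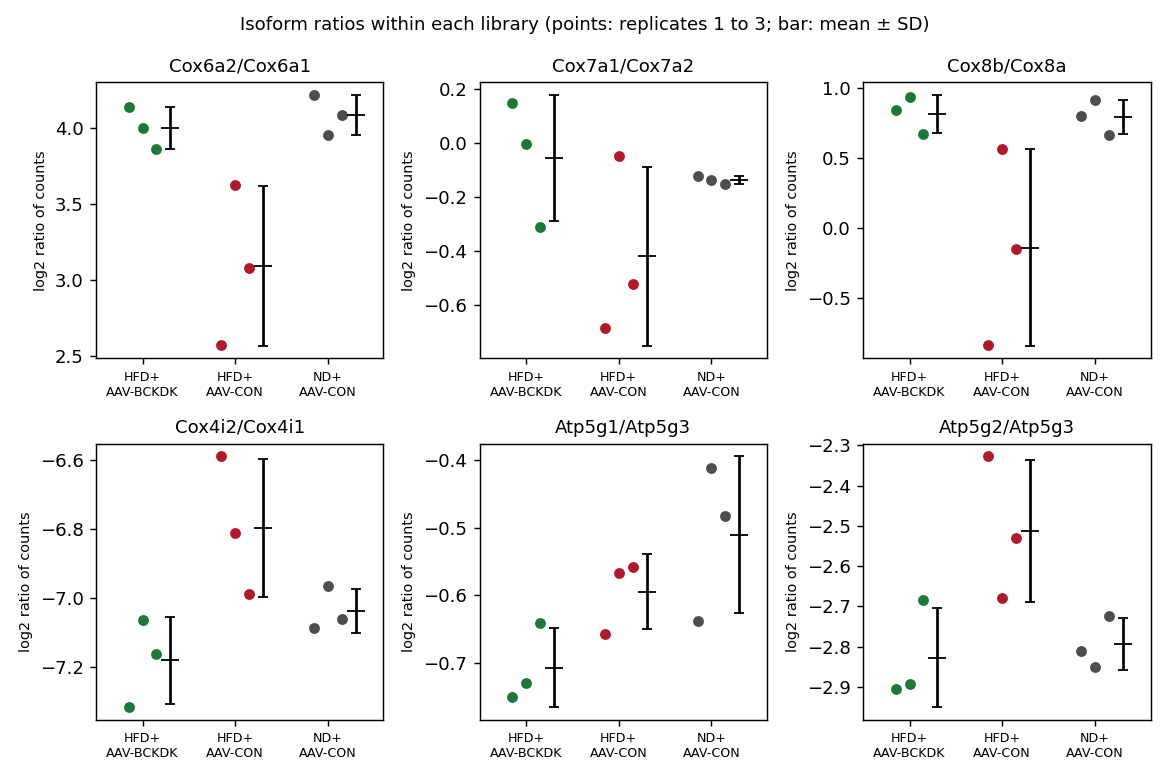
Log2 ratio of the counts of 2 versions of a subunit in each library (points, replicates 1 to 3 from left to right) with mean ± SD (bar, n = 3) in HFD+AAV-BCKDK, HFD+AAV-CON and ND+AAV-CON. HFD+AAV-CON lies below the other groups for Cox6a2/Cox6a1 and Cox8b/Cox8a and above them for Atp5g2/Atp5g3, and overlaps at least 1 of them in the other panels.

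The remaining pairs were lopsided. Cox4i1 (chromosome 8, 120668222 to 120674207), the common version of the largest nuclear subunit, had 1303, 1128 and 1174 CPM in HFD+AAV-BCKDK, 467, 963 and 685 CPM in HFD+AAV-CON, and 1127, 1368 and 1224 CPM in ND+AAV-CON, and it rose by 0.77 ± 0.23 (SE, adjusted p = 0.0257) and fell by 0.81 ± 0.23 (adjusted p = 0.0174). Cox4i2, the version known for its induction by low oxygen, was scarce, with 8.16, 8.41 and 8.19 CPM in HFD+AAV-BCKDK, 4.84, 8.56 and 5.39 CPM in HFD+AAV-CON, and 8.28, 10.9 and 9.17 CPM in ND+AAV-CON. The HFD+AAV-CON range of Cox4i2 held all 3 HFD+AAV-BCKDK values, and the gene fell by 0.60 ± 0.21 (adjusted p = 0.0397) against ND+AAV-CON but was not called in HFD+AAV-BCKDK against HFD+AAV-CON (0.40 ± 0.21, adjusted p = 0.148). That fall was not called in 8 of the 9 fits without 1 library. The log2 ratio of Cox4i2 to Cox4i1 differed by -0.38 in HFD+AAV-BCKDK against HFD+AAV-CON, without overlap (two-sided exact permutation p = 0.1, adjusted p = 0.333). Cox6b1, an intermembrane-space subunit, had 394, 360.1 and 316 CPM in HFD+AAV-BCKDK, 169, 292 and 214 CPM in HFD+AAV-CON, and 319, 449.7 and 345 CPM in ND+AAV-CON, with a rise of 0.67 and a fall of 0.72. Its counterpart Cox6b2, best known from testis, held 20, 15 and 20 counts in HFD+AAV-BCKDK, 49, 38 and 30 counts in HFD+AAV-CON, and 24, 56 and 31 counts in ND+AAV-CON. Cox6b2 was not called in any comparison, and its log2 fold changes were -0.58 ± 0.40 (adjusted p = 0.277) and -0.23 ± 0.39 (adjusted p = 0.662), both negative. Cox7b (chromosome X, 106015700 to 106022450) had 655, 652 and 552 CPM in HFD+AAV-BCKDK, 236, 482 and 320.5 CPM in HFD+AAV-CON, and 564, 674 and 557 CPM in ND+AAV-CON, rising by 0.84 and falling by 0.79. Cox7b2, the other version, was too low to test, with 0, 2 and 0 counts in HFD+AAV-BCKDK, 0, 0 and 4 counts in HFD+AAV-CON, and 6, 13 and 25 counts in ND+AAV-CON. Cox8c and a second row with the symbol Atp5o held no count in any library.

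The sequences upstream of these isoform genes are shown because the muscle and common versions of a subunit are compared here within each library. Each runs 5′ to 3′ over the 250 bases before the RefSeq start (GRCm38.p6), and capitals mark matches, on either strand, to 7 motifs that were searched. The motifs were GCGCA, any base, then GCGC for NRF1, CCGGAAGT for GABPA, AAGGTCA for the estrogen-related receptors, GGGCGG for SP factors, CAGCTG for an E-box, CCAAT, and the MEF2 motif. No 2 matches overlapped in these windows. For Cox6a1, Cox7a1 and Cox7a2 the window reaches a few bases into the gene as GENCODE draws it.
Cox7a1 (muscle version), chr7:30183921-30184170, plus strand: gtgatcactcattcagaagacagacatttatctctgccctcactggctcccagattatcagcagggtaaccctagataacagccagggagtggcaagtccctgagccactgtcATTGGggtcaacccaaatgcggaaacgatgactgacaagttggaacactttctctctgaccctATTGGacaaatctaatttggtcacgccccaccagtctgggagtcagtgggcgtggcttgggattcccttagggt
Cox7a2 (common version), chr9:79759854-79760103, minus strand: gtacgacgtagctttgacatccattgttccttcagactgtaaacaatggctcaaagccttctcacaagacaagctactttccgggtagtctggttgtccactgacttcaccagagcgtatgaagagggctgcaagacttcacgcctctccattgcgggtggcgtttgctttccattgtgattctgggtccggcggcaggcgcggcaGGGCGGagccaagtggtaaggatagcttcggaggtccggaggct
Cox8b (muscle version), chr7:140900447-140900696, minus strand: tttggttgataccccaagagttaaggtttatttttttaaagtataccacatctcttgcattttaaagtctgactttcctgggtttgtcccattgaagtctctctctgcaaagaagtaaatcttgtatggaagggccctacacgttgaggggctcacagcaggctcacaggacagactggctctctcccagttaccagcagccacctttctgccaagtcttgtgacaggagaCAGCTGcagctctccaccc
Cox8a (common version), chr19:7217617-7217866, minus strand: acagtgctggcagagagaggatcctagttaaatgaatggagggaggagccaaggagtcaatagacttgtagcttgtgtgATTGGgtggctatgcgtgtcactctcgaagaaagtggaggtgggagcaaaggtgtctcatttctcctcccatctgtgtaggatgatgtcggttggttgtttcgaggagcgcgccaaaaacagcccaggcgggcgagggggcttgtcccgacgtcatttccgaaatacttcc
Cox6a1 (common version), chr5:115348959-115349208, minus strand: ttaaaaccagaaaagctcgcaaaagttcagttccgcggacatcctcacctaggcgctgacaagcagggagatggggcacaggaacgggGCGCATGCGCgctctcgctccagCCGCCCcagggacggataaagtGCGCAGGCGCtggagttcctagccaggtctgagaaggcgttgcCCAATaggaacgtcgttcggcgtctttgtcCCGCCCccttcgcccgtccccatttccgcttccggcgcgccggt

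Among the 5 windows the NRF1 motif was found in that of Cox6a1 alone, at 2 places that start 162 and 117 bases before the gene's start. SP matches were found for Cox6a1 and Cox7a2, and the E-box for Cox8b. CCAAT was matched at 2 places for Cox7a1 and 1 for Cox8a, both on the other strand and so printed as ATTGG. Cox6a1 had 1 CCAAT match, on the printed strand. Cox6a2 was not among the promoters matched. Over the 300 bases around the start, from 250 before to 50 after, promoters were matched for 36 of the 47 members. Of these, 25.0% held the NRF1 motif, 13.9% the receptor motif AAGGTCA, 11.1% the GABPA motif, 38.9% the SP motif, 55.6% CCAAT and 5.56% the E-box, while none held the MEF2 motif. Among 27025 promoters of all genes the shares were 4.78%, 4.66%, 4.0%, 35.9%, 37.9%, 16.1% and 3.26%, in the same order. A match is a description of letters, and no binding was measured in these samples.

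In complex V, 16 of 17 members rose in HFD+AAV-BCKDK relative to HFD+AAV-CON and 17 of 17 fell in HFD+AAV-CON against ND+AAV-CON. Leaving out HFD+AAV-CON replicate 3, 1 rose and 5 fell, with medians of 0.72 and -0.77. Without HFD+AAV-BCKDK replicate 1, 1 rose, and without ND+AAV-CON replicate 2, 5 fell. The F1 head that makes ATP is built from Atp5a1, Atp5b, Atp5c1, Atp5d and Atp5e, which rose by 0.67, 0.65, 0.69, 0.56 and 1.01 and fell by 0.72, 0.67, 0.84, 0.63 and 0.86 on the log2 scale. The rise of Atp5d was not called in 8 of the 9 fits without 1 library, and that of Atp5b in 7. The peripheral stalk that holds the head in place includes Atp5f1, Atp5h, Atp5j and Atp5o, which rose by 0.72 to 0.78 and fell by 0.70 to 0.89. The small membrane subunits Atp5j2, Atp5k, Atp5l and Atp5mpl rose by 0.75 to 1.003 and fell by 0.72 to 0.93. Atp5c1, the central shaft, also named after its values were seen, had HFD+AAV-BCKDK values (1062 to 1101 CPM) all below the ND+AAV-CON values (1135 to 1294 CPM). It was the only member tested with that order, and its log2 fold change of -0.15 ± 0.19 was not called (adjusted p = 0.758). That SE too includes the spread of the HFD+AAV-CON libraries. The share of all genes tested with HFD+AAV-BCKDK values all below ND+AAV-CON was 15.1%, and all above it 12.6%, against 1 of 47 members each way.

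Atp5s (chromosome 12, 69724950 to 69744660) had the smallest p of complex V in both comparisons, at a low level. It had 23.0, 24.1 and 21.9 CPM in HFD+AAV-BCKDK, 11.6, 17.7 and 14.1 CPM in HFD+AAV-CON, and 22.5, 26.2 and 25.9 CPM in ND+AAV-CON. HFD+AAV-CON was below the other groups in every library. Atp5s rose by 0.67 ± 0.14 (SE, adjusted p = 0.00769) and fell by 0.78 ± 0.14 (adjusted p = 0.00287), and it was called in every fit that left out 1 library, with a highest adjusted p of 0.0305 and 0.0144.

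The c ring, which turns as protons pass, is made of 1 protein encoded by 3 genes. Atp5g3 had 1278, 1096 and 1045 CPM in HFD+AAV-BCKDK, 433, 910.0 and 596 CPM in HFD+AAV-CON, and 1079.7, 1252 and 1106 CPM in ND+AAV-CON. Atp5g1 had 759, 661 and 671 CPM in HFD+AAV-BCKDK, 275, 614 and 405 CPM in HFD+AAV-CON, and 694, 942 and 791 CPM in ND+AAV-CON. Atp5g2 had 171, 148 and 162 CPM in HFD+AAV-BCKDK, 86.3, 142 and 103 CPM in HFD+AAV-CON, and 154, 174 and 167 CPM in ND+AAV-CON. All 3 genes were lowest in HFD+AAV-CON, with no overlap with either other group. Atp5g3 rose by 0.82 ± 0.23 (SE, adjusted p = 0.0236) and fell by 0.83 ± 0.23 (adjusted p = 0.0190), and Atp5g2 rose by 0.54 ± 0.16 (adjusted p = 0.0281) and fell by 0.58 ± 0.16 (adjusted p = 0.0179). Atp5g1 fell by 0.91 ± 0.25 (adjusted p = 0.0176) and was the member of complex V not called in HFD+AAV-BCKDK against HFD+AAV-CON (0.69 ± 0.25, adjusted p = 0.0540). Without HFD+AAV-CON replicate 3 none of these calls was kept. The log2 ratio of Atp5g2 to Atp5g3 differed by -0.32 in HFD+AAV-BCKDK relative to HFD+AAV-CON and by 0.28 in HFD+AAV-CON against ND+AAV-CON, without overlap (two-sided exact permutation p = 0.1 for each, adjusted p = 0.333). Atp5g1 had 0.594, 0.603 and 0.641 counts per Atp5g3 count in HFD+AAV-BCKDK and 0.642, 0.752 and 0.716 in ND+AAV-CON, the only isoform ratio of the 6 tested that did not overlap between these groups (two-sided exact permutation p = 0.1, adjusted p = 0.333).

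Of the 6 counterparts encoded by mitochondrial DNA, 4 rose and 1 fell in these comparisons. Against HFD+AAV-CON, in HFD+AAV-BCKDK mt-Co2, mt-Co3, mt-Atp6 and mt-Atp8 rose by 0.91, 0.95, 0.85 and 0.75, whereas mt-Co1 (0.83 ± 0.38, SE, adjusted p = 0.111) and mt-Cytb (0.82 ± 0.30, adjusted p = 0.0531) were not called. In HFD+AAV-CON against ND+AAV-CON, mt-Co3 fell by 0.85 ± 0.30 (adjusted p = 0.0462) and the other 5 were not called, with log2 fold changes of -0.77 to -0.57. These 4 rises and the fall of mt-Co3 were not called without HFD+AAV-CON replicate 3, where the medians of the 6 were 0.83 and -0.69. Nuclear counts per mitochondrial count within complex IV were 0.0213 to 0.0245 in HFD+AAV-BCKDK, 0.0235 to 0.0262 in HFD+AAV-CON and 0.0212 to 0.0259 in ND+AAV-CON. Within complex III they were 0.0804 to 0.0969, 0.0932 to 0.0958 and 0.0878 to 0.115 in the same groups, and within complex V 0.378 to 0.450, 0.445 to 0.469 and 0.432 to 0.518. These ratios overlapped between groups in all 9 comparisons (two-sided exact permutation p from 0.2 to 0.8, adjusted p from 0.4 to 0.8).

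Factors that build complexes II to V were tested as a list of their own. Of 36 assembly factors tested, 23 rose and none fell in HFD+AAV-BCKDK against HFD+AAV-CON, with a median log2 fold change of 0.46, and 22 fell and none rose in HFD+AAV-CON against ND+AAV-CON, with a median of -0.49. There were 13 rises and 13 falls without HFD+AAV-CON replicate 3, with medians of 0.50 and -0.51. Among those of complex II and III, Sdhaf3 rose by 0.77 and fell by 0.74, Uqcc2 rose by 0.87 and fell by 0.81, and Ttc19 rose by 0.55 and fell by 0.68. Of the 22 factors for complex IV, 12 rose and 9 fell, led in the fall by Cmc1 (by 0.69) and Cmc2 (by 0.70) and in the rise by Cox16 (0.61) and Cmc2 (0.72). Tmem70, which helps assemble ATP synthase, rose by 0.62 and fell by 0.69. The copper-handling factor Cox19 was the only assembly factor called in HFD+AAV-BCKDK against ND+AAV-CON, with a rise of 0.63 ± 0.13 (SE, adjusted p = 0.0400). A count of 1 of 36 lies near the 2.45% of all genes called there. Without HFD+AAV-CON replicate 3, which is outside this comparison, no assembly factor was called, while 67 of 14325 genes rose and 55 fell.

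Some subunits lie outside the symbols of the rule. Ndufa4, the subunit of complex IV that was long counted in complex I, rose by 0.94 and fell by 0.91. Usmg5 rose by 0.86 and had a log2 fold change of -0.80 ± 0.30 (SE, adjusted p = 0.0559) in HFD+AAV-CON against ND+AAV-CON. Atpif1, the inhibitor of ATP synthase, fell by 0.60 ± 0.11 (SE, adjusted p = 0.00292) and was not called in HFD+AAV-BCKDK against HFD+AAV-CON (0.20 ± 0.11, adjusted p = 0.162). Its HFD+AAV-BCKDK values all lay below those of ND+AAV-CON, with a log2 fold change of -0.39 ± 0.11 that was not called (adjusted p = 0.103). Of the 6 genes in this list (Ndufa4, Ndufa4l2, Usmg5, Atpif1, Higd1a and Higd2a), 3 rose and 3 fell in the fit of all libraries. Without HFD+AAV-CON replicate 3, none of the 6 rose and 2 fell, with medians of 0.54 and -0.63. Of 36 subunits of complex I, 34 rose in HFD+AAV-BCKDK relative to HFD+AAV-CON and 34 fell in HFD+AAV-CON against ND+AAV-CON, with medians of 0.77 and -0.78 beside 0.74 and -0.77 for the members. Of the 36, 6 rose and 8 fell without HFD+AAV-CON replicate 3.

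**Figure D4:**
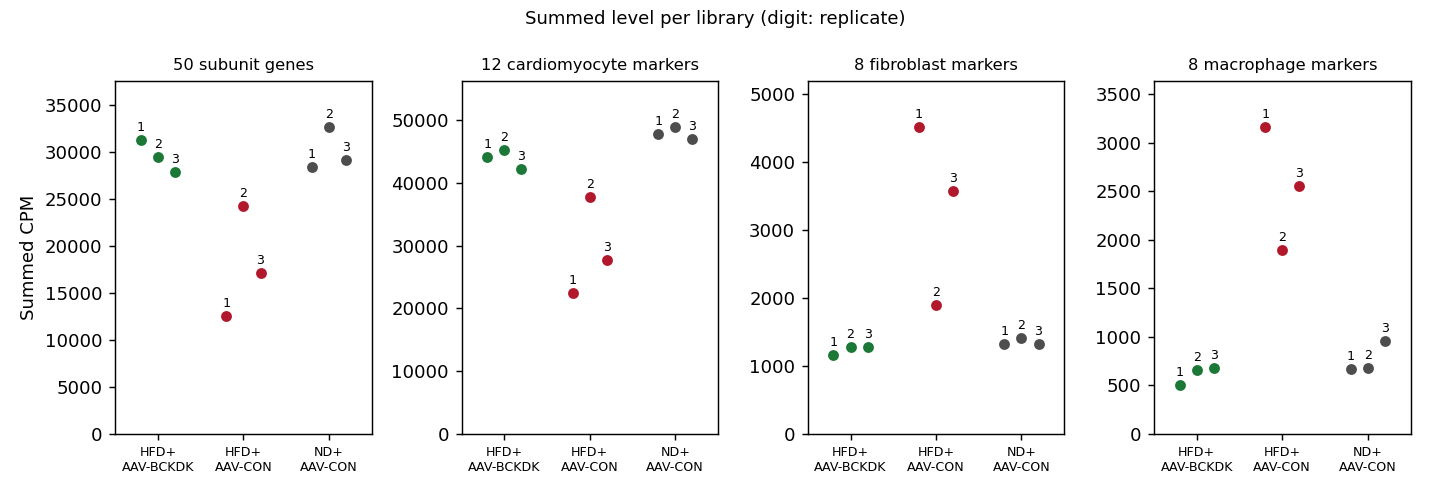
Summed CPM per library of the 50 member rows and of 3 lists of cell type markers, with the replicate's digit at each point and axes from 0. The members and the cardiomyocyte markers are lowest in HFD+AAV-CON, where the fibroblast and macrophage markers are highest, and in each panel HFD+AAV-CON replicate 2 is the library of that group nearest to the other groups.

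Markers of cell types differed between the same groups. Left ventricle is a mixture, and in such bulk samples fewer cells of a type and less RNA per cell cannot be told apart. The 12 cardiomyocyte markers summed to 42183 to 45288 CPM in HFD+AAV-BCKDK, 22491 to 37829 CPM in HFD+AAV-CON and 47074 to 48951 CPM in ND+AAV-CON. In HFD+AAV-BCKDK against HFD+AAV-CON 8 of them rose and none fell, and in HFD+AAV-CON against ND+AAV-CON 9 fell and 1, Myh7, rose. The 8 macrophage markers summed to 505 to 677 CPM, 1897 to 3162 CPM and 672 to 952 CPM in the same groups, and 8 of 8 fell in HFD+AAV-BCKDK relative to HFD+AAV-CON and 8 of 8 rose in HFD+AAV-CON against ND+AAV-CON. The 8 fibroblast markers summed to 1159 to 1284 CPM, 1897 to 4518 CPM and 1326 to 1408 CPM, with 7 falling and 6 rising in those comparisons. Of 6 endothelial markers, 6 rose and 5 fell, and of 5 erythroid markers 5 rose and 5 fell, in the same comparisons. Leaving out HFD+AAV-CON replicate 3, no cardiomyocyte marker rose and 2 fell, 8 macrophage markers fell and 8 rose, 4 fibroblast markers fell and 4 rose, 3 endothelial markers rose and 4 fell, and 1 erythroid marker rose and 5 fell, in the same 2 comparisons. The part of these cell types in the members' changes was not tested.

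The members were also set against the cardiomyocyte markers of the same library. They held 0.707, 0.652 and 0.662 counts per cardiomyocyte marker count in HFD+AAV-BCKDK, 0.559, 0.642 and 0.618 in HFD+AAV-CON, against 0.596, 0.668 and 0.621 in ND+AAV-CON. The HFD+AAV-BCKDK ratios were above all HFD+AAV-CON ratios, and those of HFD+AAV-CON and ND+AAV-CON overlapped. The log2 ratio differed by 0.15 in HFD+AAV-BCKDK against HFD+AAV-CON (two-sided exact permutation p = 0.1, the smallest possible, adjusted p = 0.333) and by -0.05 in HFD+AAV-CON against ND+AAV-CON (exact p = 0.5, adjusted p = 0.577). This ratio was added after seeing the data.

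**Figure D5:**
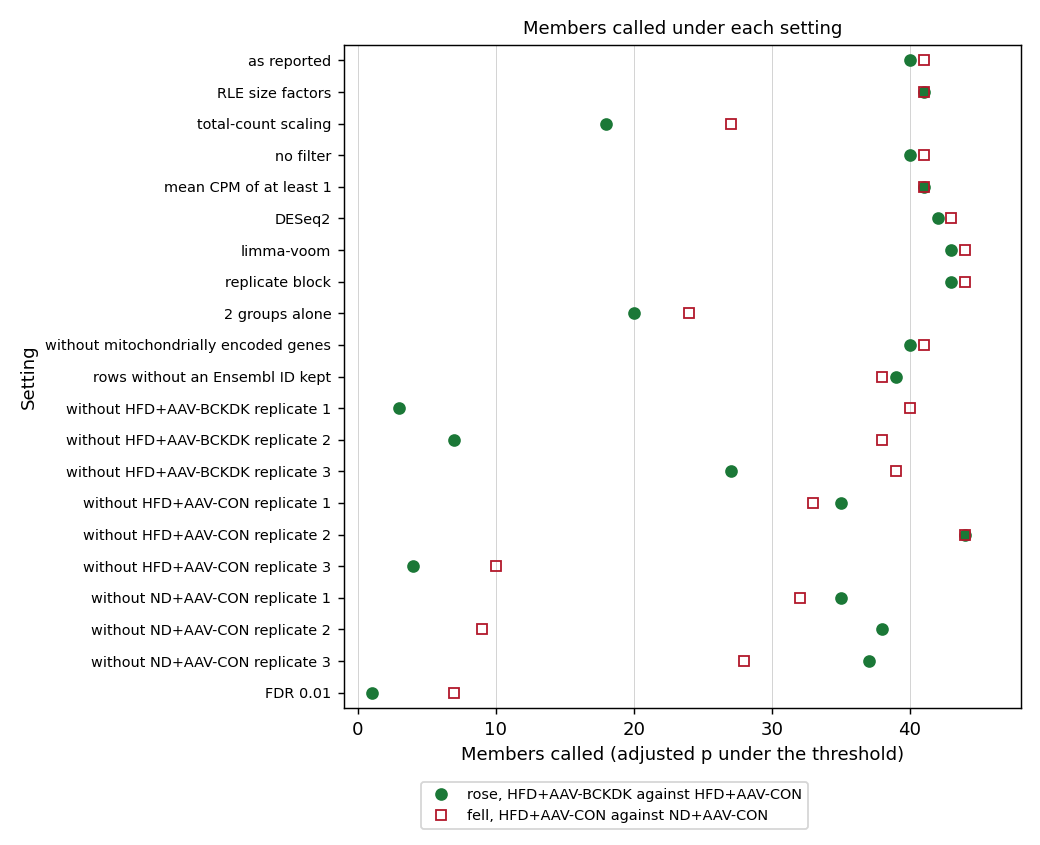
Number of members that rose in HFD+AAV-BCKDK against HFD+AAV-CON (filled circles) and that fell in HFD+AAV-CON against ND+AAV-CON (open squares) under each setting, from the fit as reported (40 and 41) down to a false discovery rate of 0.01 (1 and 7). Among the fits that leave out 1 library, the first count is lowest without HFD+AAV-BCKDK replicate 1 (3) and the other without ND+AAV-CON replicate 2 (9).

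Library scaling changed the calls. With libraries scaled by total counts, the median over all genes tested shifted to -0.47 in HFD+AAV-BCKDK relative to HFD+AAV-CON and 0.40 in HFD+AAV-CON against ND+AAV-CON. The members' medians became 0.34 and -0.42, which is 0.81 above and 0.81 below those shifts, and 18 rose and 27 fell. Of all 14160 genes, 398 rose and 934 fell in these comparisons under that scaling, against 2444 and 2919 as reported. Under that scaling Cox6a1 was called in the other direction, with -0.55 (adjusted p = 0.00426) and 0.57 (adjusted p = 0.00346), and Cox8a was called in HFD+AAV-BCKDK against HFD+AAV-CON, with -0.35 (adjusted p = 0.0362). Relative to the shift of all genes these values were -0.08 and 0.17 for Cox6a1 and 0.12 for Cox8a.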

How the data were processed

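Bulk mRNA libraries of 9 left ventricles were made with the VAHTS mRNA-seq v2 kit from Trizol-extracted RNA, per the labels' protocols. HISAT2 2.0.5 and mm10 are named per the submitters' processing notes; the sources used here do not give the counter, its annotation or its use of strand. Raw read counts were deposited by the authors without normalization. Of 26178 rows, 4142 loci with no Ensembl identifier (1.02% to 6.01% of counts) entered neither library sizes nor tests.

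The fit used R 4.3.3 and edgeR 4.0.16: filterByExpr by group (14160 genes, 47 of 50 members), TMM factors, and a quasi-likelihood fit of 3 group coefficients to all 9 libraries. Fold changes are log2, and each SE comes from the F statistic. The biological coefficient of variation was 18.6%. The fit was also run on simulated counts drawn gene by gene from its own dispersions, which does not test how single libraries affect the calls. Log2 ratios within a library used a pseudocount of 0.5 and exact permutation tests (SciPy 1.17.1), adjusted over 30. Levels per kilobase and positions use GENCODE vM21 (GRCm38), and promoters RefSeq (GRCm38.p6). Near-identical copies were sought with BLAST 2.17.0, at 95% identity over 90% of the coding sequence. Alternatives used limma 3.58.1 and DESeq2 1.42.0. Members and lists were chosen with earlier results of these data known. Values per library are given for isoform pairs, for the smallest p per complex in the comparisons of virus and of diet, and for members not called there; of other lists, up to 4 genes of smallest p and any called against its list are named. Each edgeR p-value weighs a difference between groups against a spread estimated over all 9 libraries. Each exact p-value compares a difference with those obtained when the libraries' group labels are exchanged.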

Additional observations from a re-analysis of the deposited data

How the results depend on the processing

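Calls depended on single libraries and on scaling. In HFD+AAV-BCKDK against HFD+AAV-CON, 40 members rose as reported, 18 (with 2 falling) under total-count scaling, 20 with these groups fitted alone and 1 at a false discovery rate of 0.01. In HFD+AAV-CON against ND+AAV-CON, 41 fell as reported, and 27 (with 1 rising), 24 and 7 under the same settings. Over all genes, 2444, 398, 1491 and 497 rose in the virus comparison under these settings, in that order. Those falling in the diet comparison numbered 2919, 934, 2334 and 1314. All genes tested were 14160, or 13818 and 14042 with the groups fitted alone. Leaving out 1 library gave 3 to 44 rising and 9 to 44 falling, with medians of 0.564 to 1.07 and -1.05 to -0.558. Over all genes, the same fits gave 984 to 3555 rising and 1724 to 3689 falling. Each such fit has fewer libraries. Total-count scaling gave medians of 0.343 and -0.416. DESeq2, limma-voom, RLE factors, other filters, keeping unnamed loci and leaving out mitochondrial genes gave 39 to 43 rising and 38 to 44 falling. Over all genes, these settings gave 2125 to 2899 rising and 2665 to 3228 falling, with 12589 to 17180 genes tested. In HFD+AAV-BCKDK against ND+AAV-CON no member was called under any setting run, where 2.45% of all genes were called as reported. A replicate block gave 43 rising and 44 falling, beside 2250 and 2679 of all 14160 genes. Deviations of same-numbered libraries had correlations of -0.22 to 0.192, and those of differently numbered libraries -0.277 to 0.296. No pairing by number was seen, but 3 libraries a group are too few to exclude it. Some signs changed. Under total-count scaling all genes shifted, by a median of -0.47 in HFD+AAV-BCKDK relative to HFD+AAV-CON and 0.40 in HFD+AAV-CON against ND+AAV-CON, and relative to that shift none of the genes named here changed sign (Cox4i2 0.46 and Cox8a 0.12 with the virus, Cox8a -0.08 and Cox6b2 -0.24 with the diet). Why signs changed with 1 library left out was not tested. In HFD+AAV-BCKDK against HFD+AAV-CON, the log2 fold change of Cox8a was -0.35 under total-count scaling and -0.0102 to 0.206 with 1 library left out, and that of Cox4i2 was -0.0120 under total-count scaling. In HFD+AAV-CON against ND+AAV-CON, Cox8a gave 0.32 and -0.161 to 0.00507, and Cox6b2 gave 0.16 and -0.450 to 0.218, under the same settings. With 1 library left out, log2 ratios in HFD+AAV-BCKDK against ND+AAV-CON ranged from -0.0199 to 0.209 for Cox7a1/Cox7a2, -0.0411 to 0.0957 for Cox8b/Cox8a and -0.104 to 0.00542 for Atp5g2/Atp5g3. In HFD+AAV-CON against ND+AAV-CON, nuclear to mitochondrial counts of complex IV ranged from -0.0530 to 0.0925 and members to cardiomyocyte markers from -0.0937 to 0.00605. For Cox6b2, at 15 to 56 counts a library, depth limits what can be detected.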
